A study of Homo sapiens with 7 samples.

Results

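Iron handling was described through 10 genes in Daoy cells, an established human medulloblastoma line. The genes encode transferrin (TF), its receptor (TFRC), the heavy and light ferritin chains (FTH1 and FTL), the iron exporter ferroportin (SLC40A1), the divalent metal transporter DMT1 (SLC11A2), the iron regulatory proteins (ACO1 and IREB2), the haem oxygenase HMOX1 and the ferrireductase STEAP3. They were found by matching the RefSeq accession of each row to its gene symbol, and each of the 10 was read by 1 row, 10 of 24000 rows and 10 of 17217 named genes. The genes were selected on their roles in iron handling, without a threshold on any value. The log2 intensities of these arrays, and the differences between the replicates, were already in view. Their levels and differences are therefore given as a description. Where 1 of them is said to pass the threshold in the fit of all genes, that describes its values and is no test of it. All arrays hold RNA of wild-type, untreated Daoy cells grown in a serum-supplemented MEM-type medium, with 4 arrays from biological replicate 2 and 3 arrays (1, 2 and 4) from biological replicate 1. Array 3 of replicate 1 was not analysed here. Arrays of 1 biological replicate were treated as repeat measurements, and the labels do not say whether the replicates were separate cultures, so a p-value between them measures the spread between these arrays, and the replicate cannot be told apart from the 4-plex array it was run on.

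Cells take up iron mainly as ferric iron bound to transferrin, which enters endosomes with the transferrin receptor. In the endosome STEAP3 reduces the iron and DMT1 carries it into the cytosol, where it is used, stored inside ferritin shells or exported by ferroportin. When iron is scarce, the regulatory proteins IRP1 (the product of ACO1) and IRP2 (the product of IREB2) bind hairpins in messenger RNAs, the iron-responsive elements, which blocks translation of ferritin and stabilises the TFRC transcript. HMOX1 frees iron from haem. Ferritin is thus set largely at translation, which an RNA array does not read, whereas TFRC is set largely by the stability of its mRNA.

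The hairpin that the regulatory proteins bind was shown for FTL because it lies near the start of that transcript, within the window the RefSeq promoter table gives. The search asked for a C, 5 bases, the loop CAGTGN and 5 bases that pair with the first 5, G-T pairs allowed, on the transcribed strand of the 50 bases after each annotated start. It matched 8 of 35116 windows (0.023%), among them those of FTL and of ALAS2, the erythroid enzyme of haem synthesis whose mRNA carries such an element too. Both are printed with the loop in capitals, FTL at chr19:48965341-48965357 on the plus strand and ALAS2 at chrX:55030947-55030963 on the minus strand (RefSeq, GRCh38.p14).
FTL: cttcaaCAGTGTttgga
ALAS2: cgtcctCAGTGCagggc
The 2 hairpins share the loop up to its last base, while their arms are not the same sequence. Elements outside this window, such as those known near the end of the TFRC transcript, were not searched.

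Promoter sequence is shown for TF and FTL, which differed most between the replicates, and for TFRC, the receptor of transferrin. The 250 bases before each start were searched on both strands for TATAAA (the TATA box), ACGTG (the core of a hypoxia response element) and TGACNNNGC (the core of an antioxidant response element), which occur in 10.7%, 18.5% and 10.9% of 35116 such windows. Windows were listed for 8 of the 10 genes, 13 windows in all. Capitals mark a match, and the sequences come from RefSeq, GRCh38.p14, at chr3:133746143-133746392 (plus strand, 1 of 2 starts listed for TF), chr3:196082091-196082340 (minus strand, TFRC) and chr19:48965059-48965308 (plus strand, FTL).
TF: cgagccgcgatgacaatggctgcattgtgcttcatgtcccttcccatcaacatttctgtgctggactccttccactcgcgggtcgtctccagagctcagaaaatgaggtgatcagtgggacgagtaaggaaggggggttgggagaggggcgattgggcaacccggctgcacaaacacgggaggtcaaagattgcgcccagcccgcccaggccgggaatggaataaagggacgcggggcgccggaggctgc
TFRC: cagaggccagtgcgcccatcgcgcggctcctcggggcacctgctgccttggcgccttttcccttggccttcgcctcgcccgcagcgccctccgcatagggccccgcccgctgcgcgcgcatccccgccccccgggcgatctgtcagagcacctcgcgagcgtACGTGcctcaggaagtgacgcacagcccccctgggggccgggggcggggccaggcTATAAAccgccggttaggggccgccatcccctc
FTL: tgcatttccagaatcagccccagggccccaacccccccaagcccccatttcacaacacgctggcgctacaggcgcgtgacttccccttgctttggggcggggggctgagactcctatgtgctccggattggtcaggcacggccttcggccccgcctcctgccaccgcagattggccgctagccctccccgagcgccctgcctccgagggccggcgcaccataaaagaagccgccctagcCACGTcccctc
TFRC held a TATAAA whose first base lies 33 bases before the start and an ACGTG at 88 bases. FTL held ACGTG on the opposite strand at 11 bases. The letters of the 3 motifs were in neither TF window, and the remaining members' windows held none of them.

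Values are log2 intensities, already background corrected and quantile normalized, with a median of 8.15 on every array. The table has no detection calls, so background was set at the 95th percentile of 364 olfactory receptor genes, read as not expressed, which came to 7.54 for the mean of both replicates, 7.24 in replicate 2 and 7.79 in replicate 1. An intensity depends on the probes of its row, so levels were set against background and not ranked between genes. Between the replicates 8568 of 17217 named genes passed limma's test at an adjusted p under 0.05 (49.8%), with 25.5% of all named genes higher in replicate 2 and 24.2% lower. Of the labelled line's markers, 6 of 11 medulloblastoma and neural genes were above background, among them the hedgehog receptor PTCH1 (12.22 ± 0.16, SD, n = 2), its partner SMO (11.89 ± 0.03), the neuronal enolase ENO2, NEFL (11.65 ± 0.26), TUBB3 (10.62 ± 0.28) and SOX2 (7.94 ± 0.17). ATOH1 (6.29 ± 0.15), ZIC1 (5.87 ± 0.27), GLI1 (6.91 ± 0.02), OTX2 (7.06 ± 0.39) and NES (6.83 ± 0.54) were below it.

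Of the 10 iron genes, 9 lay above background by their mean over both replicates, against 60.6% of all named genes, and the exception was SLC40A1. FTH1 and HMOX1 exceeded background by 0.10 each on the log2 scale, and on no array of replicate 1 did either exceed that array's own background. At the threshold, 3 genes were higher in replicate 2 (FTL, HMOX1 and STEAP3) and 2 were lower (TF and SLC40A1), 5 of 10 against 49.8% of all named genes and 48.8% of all rows (24.6% of rows higher, 24.2% lower). The arrays of the 2 replicates lay wholly apart for 6 of the 10, 3 higher and 3 lower, against 52.4% of all named genes (26.6% higher, 25.7% lower). The contrast was known when the genes were chosen, so nothing is read from these counts. With the array number as a block, TFRC was higher and SLC11A2 lower as well, 7 of 10 against 54.6% of all genes. Array 3, read here for replicate 2 alone, adds nothing to a blocked difference. The median difference of the 10 genes was 0.29, and that of all named genes -0.01.

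**Figure D1:**
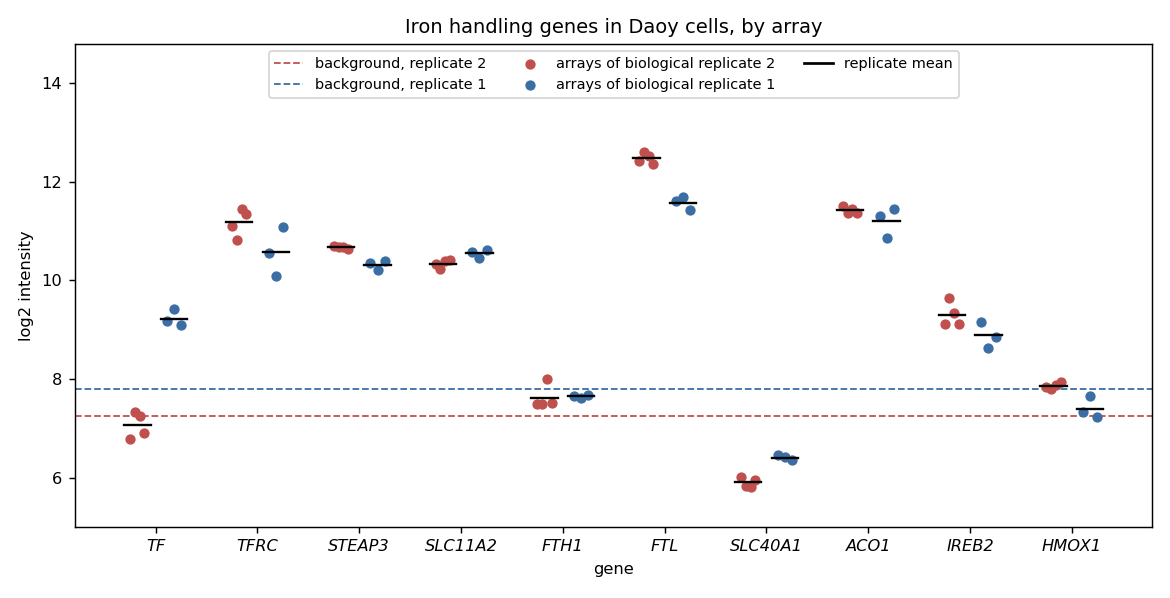
Log2 intensity of the 10 iron genes on each array, with replicate 2 left of replicate 1 for every gene, black lines for the replicate means and dashed lines for the background of each replicate. TF lies at 7.06 in replicate 2, below that replicate's background of 7.24, and at 9.22 in replicate 1, while SLC40A1 is below background in both.

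Transferrin, the plasma carrier of iron that liver, choroid plexus and oligodendrocytes are known to secrete, showed the largest difference of the 10. TF stood at 6.77, 7.33, 7.24 and 6.90 on arrays 1 to 4 of replicate 2, against 9.17, 9.42 and 9.09 on arrays 1, 2 and 4 of replicate 1. The arrays did not overlap, and the highest of replicate 2 was far below the lowest of replicate 1. The difference was -2.16 ± 0.15 (SE), and between -2.25 and -2.07 without any 1 array. The mean of replicate 2 lay below its background, with 1 of its 4 arrays above that array's own background. The mean of replicate 1 was 3.96-fold above the background of replicate 2 (7.24). The background of replicate 1 was itself higher, at 7.79. TF was thus above background in 1 of the 2 replicates of the same line.

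Markers of other cells that carry TF or handle much iron were measured beside it. The labels name Daoy cells alone, so a marker above background is not read as the presence of another cell type. In bulk RNA, fewer cells of a type and less RNA per cell cannot be told apart. Of 9 oligodendrocyte markers 2 were above background, CNP at 10.24 in replicate 2 and 11.60 in replicate 1 and CLDN11 at 10.05 and 8.34 in the same order, while the myelin gene MBP was below it. The markers given as below background in these lists were picked after their values were seen. The summed intensity of that list, as log2, was 11.39 to 11.64 on the arrays of replicate 2 and 11.86 to 12.12 on those of replicate 1. This sum of unlogged intensities rests mostly on CNP and CLDN11. Of 10 liver markers 1 was above background, the protease inhibitor SERPINA1 (11.29 in replicate 2 and 10.06 in replicate 1). The albumin gene ALB was at 6.29 ± 0.44. The summed list, to which SERPINA1 gave the largest part, was 11.55 to 11.72 in replicate 2 and 10.73 to 10.89 in replicate 1. Of the 10 liver markers, 2 passed as higher in replicate 2 and 2 as lower. Macrophage markers had 2 of 9 above background (CD68 at 10.40 in replicate 2 and 9.83 in replicate 1, and the receptor CSF1R at 8.40 and 9.78 in the same order) and sums of 10.98 to 11.27 in replicate 2 and 11.05 to 11.27 in replicate 1. The macrophage haemoglobin scavenger receptor CD163 and the leukocyte gene PTPRC were below background. Erythroid markers had 1 of 8 above background (the embryonic globin HBE1) and sums of 9.84 to 10.03 in replicate 2 and 9.61 to 9.76 in replicate 1, and HBB was below background. Whether these genes bear on the difference of TF was not tested.

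The receptor and the endosomal enzymes were well above background in both replicates. TFRC, which carries transferrin into the cell, stood at 11.11, 10.82, 11.45 and 11.34 on arrays 1 to 4 of replicate 2 and at 10.56, 10.10 and 11.08 on arrays 1, 2 and 4 of replicate 1. Array 4 of replicate 1 overlapped the arrays of replicate 2. The difference was 0.60 ± 0.23 (SE) and did not pass the threshold. With the array number as a block it was 0.51 ± 0.11 and passed, as it did without array 2 of replicate 2 (0.72) or without array 4 of replicate 1 (0.85). Without array 2 of replicate 1 it was 0.36 and did not pass.

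STEAP3, the ferrireductase of the transferrin endosome, was the tightest of the 10 in replicate 2. It stood at 10.69, 10.68, 10.68 and 10.64 on arrays 1 to 4 of replicate 2 and at 10.36, 10.21 and 10.39 on the 3 arrays of replicate 1. The arrays did not overlap, and the difference was 0.35 ± 0.08 (SE), a 1.28-fold higher signal in replicate 2. SLC11A2, which moves ferrous iron out of the endosome, stood at 10.33, 10.23, 10.40 and 10.41 in replicate 2 and at 10.57, 10.46 and 10.63 in replicate 1. Its arrays did not overlap either, yet the difference of -0.21 ± 0.09 (SE) did not pass the threshold without the block, and with it was -0.23 ± 0.08 and passed. Its sign ran opposite to those of TFRC and STEAP3, and when arrays were scaled to reference genes it came to -0.08.

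The 2 ferritin chains, which together form the iron storage shell, gave unlike readings. FTL, the light chain, stood at 12.43, 12.62, 12.52 and 12.36 on arrays 1 to 4 of replicate 2 and at 11.60, 11.69 and 11.43 on the 3 arrays of replicate 1. The arrays did not overlap, and the difference was 0.91 ± 0.10 (SE), a 1.88-fold higher signal in replicate 2. FTH1, the heavy chain with the ferroxidase centre, stood at 7.49, 7.49, 7.99 and 7.52 in replicate 2 and at 7.66, 7.61 and 7.67 in replicate 1. Array 3 of replicate 2 lay above all others, the remaining 3 lay below replicate 1, and the difference was -0.02 ± 0.13 (SE). Without array 3 of replicate 2 it was -0.15.

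FTH1 is known as an abundant transcript of nearly every cell, and its row lay 0.10 above the background. A value near background on these arrays is therefore not read as an absent transcript. Both ferritin genes have processed pseudogenes, and the sequences of the probes were not used here, so shared signal is uncertain for both rows. FTL is the gene whose hairpin is printed above, and the arrays do not show how much ferritin protein was made from it.

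Ferroportin, the only known exporter of iron from animal cells, was at background. SLC40A1 stood at 6.01, 5.82, 5.80 and 5.96 on arrays 1 to 4 of replicate 2 and at 6.45, 6.41 and 6.35 on the 3 arrays of replicate 1. All 7 arrays were below their own background, so no size is given, although every array of replicate 2 lay under every array of replicate 1 and the gene passed the threshold. The ferroxidases that work with it, chosen after their values were seen, were below background too, with ceruloplasmin (CP) at 6.58 ± 0.54 and hephaestin (HEPH) at 5.93 ± 0.38.

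The iron regulatory proteins were above background, and neither passed the threshold between the replicates. ACO1, whose protein is a cytosolic aconitase when it holds an iron-sulphur cluster and IRP1 when it does not, stood at 11.51, 11.37, 11.45 and 11.38 in replicate 2 and at 11.31, 10.86 and 11.44 in replicate 1. The groups overlapped, array 2 of replicate 1 was the lowest, and the difference was 0.22 ± 0.14 (SE), or 0.05 without that array. IREB2, whose protein IRP2 is destroyed when iron is plentiful, stood at 9.11, 9.64, 9.34 and 9.11 in replicate 2 and at 9.15, 8.64 and 8.86 in replicate 1. The groups overlapped, the difference was 0.42 ± 0.16 (SE), and the gene passed the threshold without array 4 of replicate 2 (0.48) or without array 1 of replicate 1 (0.55). It did not pass with the block (0.41 ± 0.19), without array 2 of replicate 2 (0.31) or without array 2 of replicate 1 (0.30).

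FBXL5, the iron-sensing subunit of the ubiquitin ligase that degrades IRP2, is named after its values were seen. It stood at 10.95, 9.84, 5.60 and 10.56 on arrays 1 to 4 of replicate 2 and at 10.89, 11.09 and 10.54 on the 3 arrays of replicate 1. Array 3 of replicate 2 was at background and the others were not, and the difference of -1.60 ± 1.08 (SE) did not pass (limma, adjusted p = 0.25). Without array 3 of replicate 2 the difference was -0.39. Of the 4 measured partners of the regulatory proteins, 2 rose (50%, against 25.5% of all named genes) and 0 fell (against 24.2%). The counts were also 2 and 0 at an unadjusted p under 0.05 and with the block. The ring subunit RBX1 rose by 0.71 (adjusted p = 0.00986). SKP1 rose by 0.36 as the mean of 2 rows that ran opposite ways, 1.09 and -0.36 (adjusted p = 0.0185 for the gene, and 0.0526 without array 2 of replicate 1). The scaffold CUL1 was at 12.18 ± 0.07 and did not pass (adjusted p = 0.639).

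HMOX1, the inducible haem oxygenase, was close to background. It stood at 7.84, 7.80, 7.88 and 7.93 on arrays 1 to 4 of replicate 2 and at 7.32, 7.65 and 7.24 on the 3 arrays of replicate 1. The arrays did not overlap, and the difference was 0.46 ± 0.11 (SE). Replicate 1 lay below its background, and against that background the signal of replicate 2 was at least 1.05-fold higher. The constitutive haem oxygenase HMOX2 fell by 1.20 to 9.51 in replicate 2, against 10.71 in replicate 1 (limma, adjusted p = 0.000892).

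**Figure D2:**
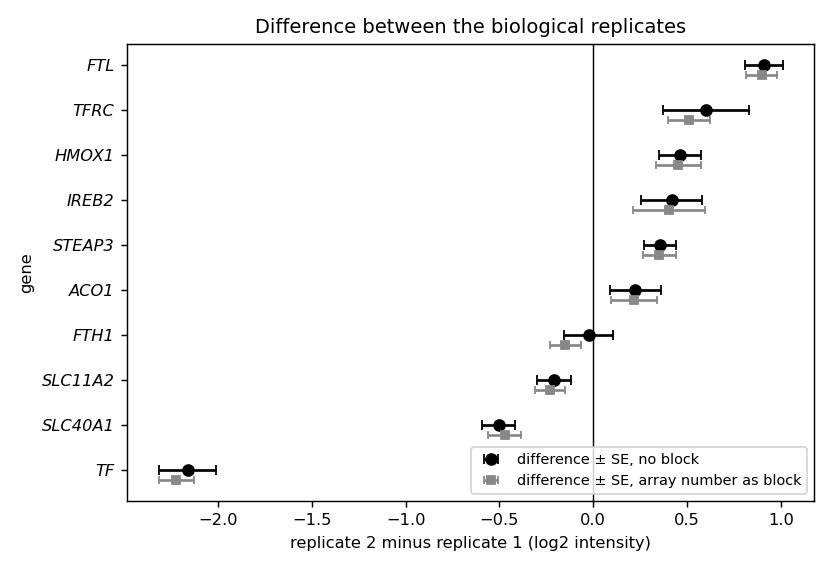
Difference between replicate 2 and replicate 1 in log2 intensity for each of the 10 genes, with limma's SE, without a block (black circles) and with the array number as a block (grey squares). TF lies at -2.16 and FTL at 0.91, and the SE of TFRC is 0.23 without the block and 0.11 with it, while SLC40A1 was below background in both replicates and its point is not read as a size.

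For some of the genes the arrays of both replicates ran in a like order by number. TFRC was lowest on array 2 in both replicates, 10.82 in replicate 2 and 10.10 in replicate 1. TF and FTL were highest on array 2 in both. Of arrays 1, 2 and 4, the same number gave the highest value in both replicates for 6 of the 10 genes, against 48.9% of all named genes, and the lowest for 4, against 50.9%. The ferritin receptor of autophagy NCOA4, chosen after its values were seen, was also lowest on array 2, with 9.69 in replicate 2 and 9.25 in replicate 1. What the array number stands for was not tested.

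**Figure D3:**
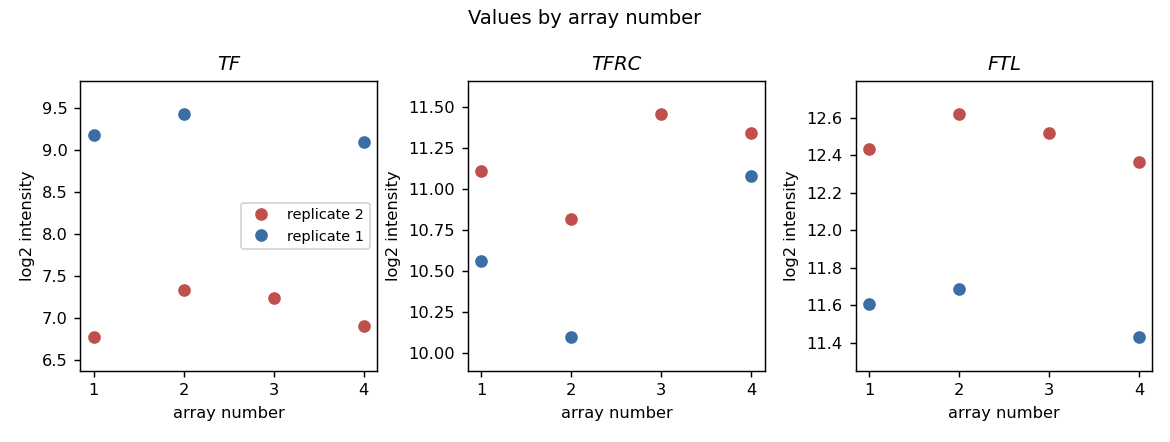
Log2 intensity of TF, TFRC and FTL against the array number (a label without order), with replicate 2 in red and replicate 1 in blue. Array 2 holds the highest TF and FTL and the lowest TFRC value of each replicate.

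The other genes of iron and haem handling were taken from 10 lists, 97 measured of 100 listed, without the 10 genes above. Of these, 74 were above background (76.3%, against 60.6% of all named genes). In replicate 2, 29 rose (29.9%, against 25.5% of all named genes) and 21 fell (21.6%, against 24.2%), and their median difference was 0.02. The share that passed, 51.5%, was near the 49.8% of all genes. The counts by list below stand beside the same shares of all named genes, 25.5% higher and 24.2% lower. Most lists hold few genes, and no list is read as differing from these shares.

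Of 7 genes of iron uptake, 4 rose (57.1%, against 25.5% of all named genes) and 0 fell (against 24.2%). At an unadjusted p under 0.05 and with the block 1 was lower, the ferrireductase STEAP4, which was below background. STEAP1, of the same reductase family, rose by 0.91 (limma, adjusted p = 0.000165), and the metal importers SLC39A8, chosen after its values were seen, and SLC39A14 rose by 0.81 and 0.41 (adjusted p = 0.00257 and 0.0259). The call of SLC39A14 ended without array 1 or 2 of replicate 2 or without array 1 or 4 of replicate 1 (adjusted p = 0.0568 to 0.0938). The second transferrin receptor TFR2, also chosen after its values were seen, rose at least 1.24-fold against the background of replicate 1 (adjusted p = 0.0108).

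Among 9 genes of ferritin loading and turnover, 3 rose and 1 fell. BOLA2, a partner of the glutaredoxins that handle iron-sulphur clusters, rose by 1.11 to 10.12 in replicate 2, against 9.01 in replicate 1 (limma, adjusted p = 2.05e-05). The iron chaperone PCBP2 fell by 0.27 (adjusted p = 0.0279), but did not pass in the blocked fit (adjusted p = 0.0566), with arrays scaled to reference genes (adjusted p = 0.439) or when 1 of 5 arrays was left out (2, 3 or 4 of replicate 2, 2 or 4 of replicate 1; adjusted p = 0.0519 to 0.0765). Mitochondrial ferritin FTMT was at 5.80 ± 0.07, below background.

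Of 6 genes in the list of iron and haem transporters and ferroxidases, not all of them exporters, 3 fell and 0 rose. The share that fell was 50%, against 24.2% of all named genes. At an unadjusted p under 0.05 and with the block, 0 were higher too. FLVCR2, which passed as lower (limma, adjusted p = 0.000489), stood at 7.26 in replicate 2 and 7.90 in replicate 1. Each mean lay close to its replicate's background of 7.24 or 7.79. In replicate 2, 2 of 4 arrays exceeded their own background, and in replicate 1, 1 of 3, so no size is given. CP and HEPH, below background in both, made up the 3, and the transporter ABCG2 was below it as well at 5.84 ± 0.15. The haem exporter FLVCR1 was at 10.08 ± 0.21 with a difference of -0.30, which passed with the block (adjusted p = 0.062 without it and 0.0161 with it).

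Of 9 genes of haem synthesis, 1 rose and 1 fell. UROD, the uroporphyrinogen decarboxylase, rose by 1.31 (limma, adjusted p = 0.00132), and ALAD, an earlier enzyme of the pathway, fell by 0.45 (adjusted p = 0.00921). ALAS1, the housekeeping enzyme of the first step, was at 12.46 ± 0.07, and the erythroid ALAS2 was below background.

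In haem breakdown and its control, 4 of 9 genes rose and 1, HMOX2, fell. The biliverdin reductase BLVRA, chosen after its values were seen, rose by 0.73 (limma, adjusted p = 0.000844), and MAFK, a small MAF partner of NRF2 and BACH1, rose by 1.04 (adjusted p = 0.000182). KEAP1, the inhibitor of NRF2, was at 11.68 ± 0.04. The NRF2 gene NFE2L2, chosen after its values were seen, differed by 0.03 (adjusted p = 0.889).

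NRF2 targets, to which HMOX1 and the ferritin genes are counted, went both ways, 4 up and 3 down of 10. The peroxiredoxin PRDX1 rose by 0.83 (limma, adjusted p = 0.000238), with 3 rows between 0.76 and 0.95, whereas GCLC of glutathione synthesis fell by 0.97 (adjusted p = 0.0121). OSGIN1 was below background.

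In the hepcidin pathway 4 genes rose and 4 fell of 12, or 4 and 3 with the block, and of the 4 that rose ID1 alone was above background by its mean over both replicates. ID1, a target of BMP signalling, rose by 1.70 (limma, adjusted p = 1.59e-05), with rows at 1.87 and 1.53, and BMP6, the ligand that drives hepcidin in liver, fell by 1.44 (adjusted p = 3.02e-05). NEO1, of the same list, fell by 0.83 (adjusted p = 0.00254). The hepcidin gene HAMP, chosen after its values were seen, was below background at 6.29 ± 0.40, as was the BMP co-receptor HJV at 5.63 ± 0.11.

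Mitochondrial iron and iron-sulphur genes were divided, 6 up and 6 down of 27, or 6 and 9 with the block. CISD1, which binds an iron-sulphur cluster on the outer mitochondrial membrane, was at least 2.53-fold higher in replicate 2 (limma, adjusted p = 1.8e-05). The scaffold ISCU fell by 0.40 (adjusted p = 0.00799), with rows at -0.67 and -0.13, and did not pass with arrays scaled to reference genes (adjusted p = 0.107). The chaperone HSPA9 was at 13.73 ± 0.05, and the transporter ABCB10 was below background.

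Of 5 other genes whose mRNAs are reported to carry an iron-responsive element, 2 fell, also 2 with the block. The kinase CDC42BPA fell by 0.87 (limma, adjusted p = 8.72e-05). The phosphatase CDC14A, chosen after its values were seen and the mean of 3 rows, fell by 0.52 (limma, adjusted p = 0.00219). It was dim, at 7.46 in replicate 2 and 7.98 in replicate 1, and its mean lay 0.19 above background.

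**Figure D4:**
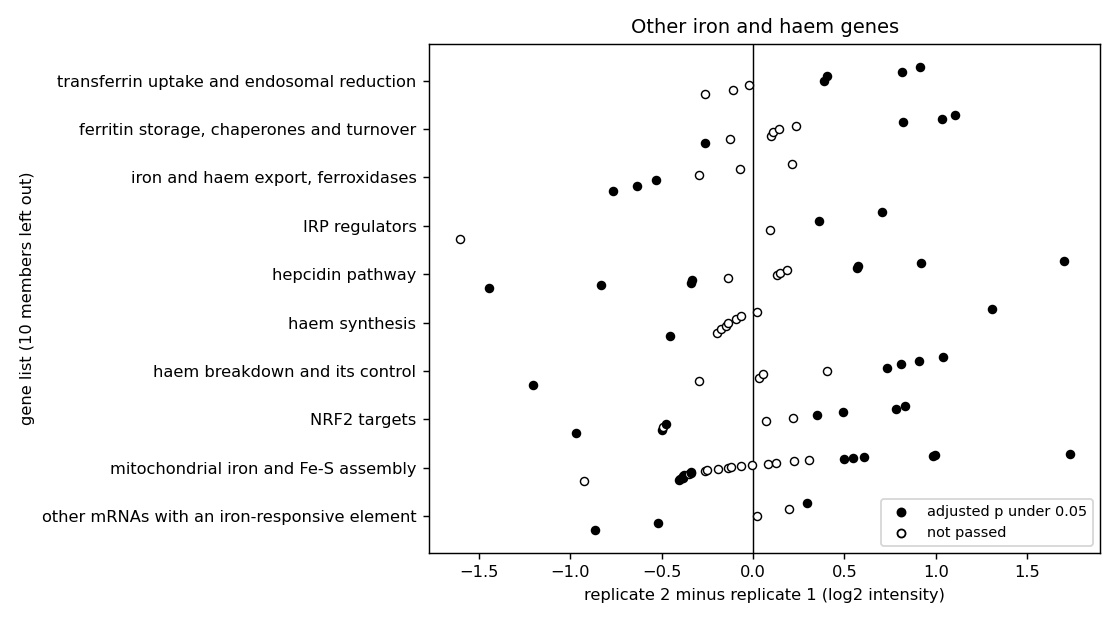
Difference between replicate 2 and replicate 1 in log2 intensity for each of the 97 other iron and haem genes, by list (ALAS2 stands in 2 lists), filled where the gene passed limma's adjusted threshold of 0.05. Points lie on both sides of 0 in every list, the highest being CISD1, with replicate 1 below background, and the lowest FBXL5, which rests on array 3 of replicate 2.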

How the data were processed

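Expression was read on single-colour arrays, 4 of biological replicate 2 and 3 of biological replicate 1. The deposited values are log2 intensities made with RMA, and limma is named too, both without a version, per the submitters' processing notes. No source names the log base, which was taken as 2 because RMA works on that scale and values ran from 5.25 to 15.46. For the rows, build and annotation were not stated. Once sorted, all columns matched within 0.002, as quantile normalization leaves them.

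Rows were named through the RefSeq gene table of GRCh38.p14 by accession without version (19125 of 24000 matched, 4875 did not), and rows of a gene were averaged. All rows and all 17217 named genes were fitted with limma 3.58.1 in R 4.3.3 (replicate 2 minus replicate 1, Benjamini-Hochberg over all genes, threshold 0.05). Figures used matplotlib 3.10.9. Members and lists were chosen with earlier results of these data known. Of each other list, the genes with the largest rise and fall past the threshold and above background in a replicate, and with the highest and lowest level, were named, of markers of other cells those above background, and every medulloblastoma marker. Some genes that the rule names are not reported here. Genes outside this rule are said to be chosen after their values were seen.

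Same-numbered arrays deviated together from their replicate means (r = 0.21, 0.35 and 0.40 across rows for arrays 1, 2 and 4, with 0.20 for array 3 of replicate 2 against array 4 of replicate 1), which is the basis for treating the number as a pairing, and a blocked fit was added. Array 3 has no partner in replicate 1, so a blocked difference equals the difference without array 3 of replicate 2. The fit without a block was tested on simulated data of 24000 rows, with 100 rows changed by 0.5 and 100 by 1 on the log2 scale. It recovered 16% and 69% of them, and called 7 unchanged rows. Far fewer rows were changed than the 48.8% that passed in the data, so these shares need not hold there. A difference that did not pass is not read as no difference. The number of arrays limits the precision. Alternatives were a filter on dim genes, an intensity trend, reference-gene scaling, the brightest row of a gene, other backgrounds, the median of arrays and leaving out each array.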

Additional observations from a re-analysis of the deposited data

Results flagged for a closer look

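Among the 4 arrays of replicate 2, 1 array was flagged as far from the other 3 for 5 of 80 genes examined. This is close to the 1 in 20 that chance gives. The flag rests on the gap to the nearest array relative to the range of all 4 arrays, not on the size of the gap. FTH1, the ferritin heavy chain, was at 7.99 on array 3 against 7.49 to 7.52 on the others. MAFK was at 9.24 on array 2 against 9.03 to 9.05, and the neuronal enolase ENO2 at 13.13 on array 1 against 12.91 to 12.95. TTR, a liver and choroid plexus gene, was at 5.96 on array 4 against 5.74 to 5.76. ZIC1 was at 5.60 on array 4 against 5.69 to 5.71. Both were below background on all of these arrays. FBXL5 was examined too and was not flagged, although its gap was far wider than that of FTH1. It was at 5.60 on array 3 against 9.84 to 10.95 on the others, which also lay apart from each other. The number of flagged genes is therefore no count of wide gaps.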

How the results depend on the processing

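The differences of the 10 genes kept their sign under every alternative run, except FTH1, whose difference of -0.02 ran from -0.16 to 0.11 and did not pass in any fit run. Without any 1 array, the number of the 10 that passed higher ranged from 3 to 4 and lower was 2, other iron genes that rose numbered 24 to 28 and those that fell 14 to 20, iron genes above background stayed at 83, and 7331 to 8130 named genes and 9980 to 11084 rows passed. The replicate block raised the named genes that passed to 9392 and the rows to 12919. Among the genes named here it gave TFRC, SLC11A2, FLVCR1, STEAP4, SOX2 and BACH1 a call and took that of PCBP2 and PTCH1, and it changed no other call of a gene named here. With only rows above background, 7719 of 13722 rows passed, against 11701 of 24000, and 1 of the 10 genes was lower, since SLC40A1 was removed by that filter. Scaling to reference genes moved the median difference of all genes to 0.13, against -0.01, and the share of calls that were higher to 67.1%, against 51.3%. With it 6 of the 10 genes passed as higher, TFRC, IREB2 and ACO1 being added, and 10 of the other iron genes fell, against 21. FTL was then at 1.04, STEAP3 at 0.49 and SLC11A2 at -0.08. With markers of other tissues as background, 34 iron genes lay above it, against 83. For other named genes, 36 results lost and 9 gained a call. The table gives no signal over background for single probes.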
